A study of Arabidopsis thaliana with 2 samples.

Results

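The photosystem I genes of the Arabidopsis thaliana plastid genome were followed in axillary buds of 2 auxin-resistant lines. They were the 5 subunit genes psaA, psaB, psaC, psaI and psaJ and the 2 assembly factor genes ycf3 and ycf4, chosen by name in the annotation of the array and not by their signal. All 7 were found, each with 1 probe set assigned to that gene alone, among 69 plastid-encoded genes with such a probe set and 22746 probe sets without the manufacturer's controls. The series compared buds elongated to roughly 2 mm from axr3-1 and axr1-12 plants, with 1 expression array for each line. Both lines were made by ethyl methanesulfonate mutagenesis in the Col-0 background, and both grew on compost at 21 °C with 16 h of light and 8 h of dark, on soil that had received Intercept WG before sowing and 3 days of cold. As background, axr3-1 is a gain-of-function allele of an Aux/IAA repressor gene with strong apical dominance, and axr1-12 is a loss-of-function allele of a RUB-activating enzyme subunit gene with increased branching. The title speaks of dormant and active meristems, but the labels give the same bud description for both lines and name neither as dormant. The mutated genes had no probe set with a single-gene name here, so the line of each array rests on its label.

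Photosystem I is the thylakoid complex that takes electrons from plastocyanin on the lumenal side and passes them, with the energy of light, to ferredoxin on the stromal side. Its reaction centre is a heterodimer of the PsaA and PsaB proteins, which bind the special pair of chlorophylls and the first iron-sulfur cluster, and PsaC carries the terminal iron-sulfur clusters. In land plants these large subunits and a few small ones are made from plastid genes, while the remaining subunits and the whole antenna are made from nuclear genes and imported. Plastid genes are mostly transcribed in polycistronic units that are later cut, spliced and edited, so a probe set for 1 gene reads all processed and unprocessed RNAs that hold its sequence. The target for these arrays was primed with oligo(dT), per the labels' protocols, and plastid RNAs have no long stable poly(A) tails, so the signal depends on how much of each was primed.

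Buds of axr1-12 gave less signal than those of axr3-1 for all 7 genes, from 1.35-fold lower for psaJ to 4.06-fold lower for ycf3. Of the 7, 5 were at least 2-fold lower, namely ycf3, psaC, ycf4, psaB and psaA, and 1, ycf3, was at least 3-fold lower. Among the 11373 probe sets that passed a signal filter, 50% were lower by any amount, 3.28% at least 2-fold and 0.466% at least 3-fold. Of the other 55 plastid genes that passed, 41.8% were at least 2-fold lower. Counted from the largest difference, the plastid genes at least 3-fold lower ended at ndhK, place 9 of 62 and 3.07-fold lower, with ycf3 at place 5. Quantile and loess scaling remove an array-wide trend of the difference with brightness, but not a trend among the plastid genes alone. Under either, 3 of the 7 stayed at least 2-fold lower and the psaA and psaB calls were lost. Of the other plastid genes, 34.5% were at least 2-fold lower under quantile and 36.4% under loess scaling. The median log2 difference of the members was -1.09, that of the other plastid genes was -0.85 and that of all probe sets past the filter was 0. With this scaling the other plastid genes that passed were lower too, so the members' count is read against the other plastid genes. The members share a genome, an organelle and the same pair of RNA samples and are not replicates. With 1 array per line no difference has a standard error or a test. The mix of cells in whole buds, plastid RNA per cell, and priming or hybridisation of each array cannot be told apart.

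Differences here are log2 of the axr1-12 signal minus log2 of the axr3-1 signal after both arrays were brought to the same level through the median ratio of the filtered probe sets, while the signals printed are the deposited ones. A probe set passed the filter when its mean log2 signal reached the median of all, which corresponds to 51.4 units, and all 7 members passed. The yardstick below is 0.37, the root mean square gap between the log2 differences of paired probe sets, over 32 genes that had 2 such sets. It covers differences between probes but none between plants or hybridisations. It was computed with the median scaling only, so gaps under other scalings are set beside a yardstick of this scaling. Signals of different probe sets are not compared as levels, because each set binds with its own strength.

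**Figure D1:**
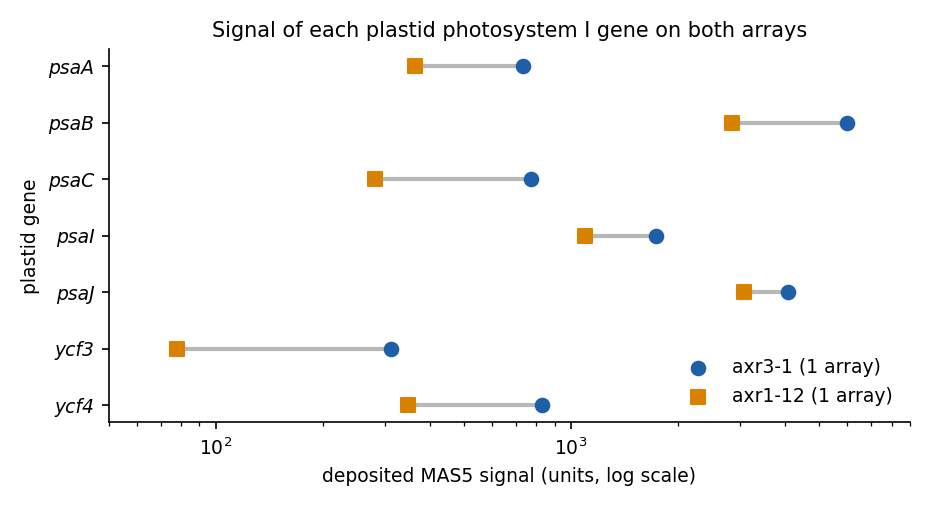
Deposited signal (units, log scale) of the 7 plastid photosystem I genes, with 1 circle for the axr3-1 array and 1 square for the axr1-12 array on each line. The axr1-12 square lies left of the axr3-1 circle for every gene, with the longest line at ycf3 (310.6 and 77.6 units) and the shortest at psaJ (4094 and 3074 units).

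The reaction centre genes differed by nearly the same amount. For psaA the probe set read 735 units in axr3-1 against 364 in axr1-12, a 2.05-fold lower signal. The psaB probe set gave 5975 and 2845 units, 2.13-fold lower. Their log2 differences of -1.04 and -1.09 were 0.05 apart, well inside the yardstick, although psaB was among the brightest probe sets of the array and psaA was not. In axr3-1 psaB was the 17th brightest of all probe sets and in axr1-12 the 57th, while psaA went from position 668 to 1609. The gap grew with the other scalings, to 0.36 under quantile and 0.29 under loess scaling, still inside the yardstick. The psaB value came to -0.60 by quantile and -0.69 by loess scaling, and psaA to -0.96 and -0.98. Neither then reached 2-fold.

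The psaC gene encodes the stromal subunit that holds the terminal iron-sulfur clusters and hands electrons to ferredoxin. Its signal was 772 units in axr3-1 but 280 in axr1-12, 2.79-fold lower, the largest difference among the 5 subunit genes. It moved from position 635 to 2242 in brightness. The other scalings hardly changed its log2 difference of -1.48, with quantile scaling giving -1.41 and loess scaling -1.44.

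The small membrane subunit genes differed least. PsaI lies at the edge of the complex where PsaL and PsaH are attached, and its probe set gave 1739 units in axr3-1 and 1097 in axr1-12, 1.61-fold lower. PsaJ lies beside PsaF, which helps plastocyanin to dock, and its probe set gave 4094 and 3074 units, 1.35-fold lower. The log2 differences of -0.69 and -0.43 were 0.25 apart, within the yardstick, but 0.46 apart under quantile and 0.41 under loess scaling, above it. The direction for psaJ was not stable, since its difference was 0.060 by quantile and -0.055 by loess scaling, and it held position 52 in axr3-1 and 45 in axr1-12. The psaI difference was -0.40 and -0.47 under the same scalings.

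The assembly factor genes were both at least 2-fold lower. Ycf3 is a chaperone with tetratricopeptide repeats that brings PsaA and PsaB together, and its gene carries introns in land plants. Its probe set gave 310.6 units in axr3-1 and 77.6 in axr1-12, 4.06-fold lower, and it went from position 1944 to 9009. The lower signal still lay above 29.4 units, the highest value of the 27 bacterial control probe sets. Ycf4 is a thylakoid protein that also takes part in assembly, shown to be essential in the alga Chlamydomonas reinhardtii but not in tobacco. Its probe set gave 832 units in axr3-1 and 348 in axr1-12, 2.43-fold lower. The difference of ycf3 was larger than that of ycf4 by 0.74 on the log2 scale, about 2 times the yardstick. Under quantile and loess scaling ycf3 was at -2.03 and -2.05 and ycf4 at -1.20 and -1.21.

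From the largest to the smallest difference the order was ycf3, psaC, ycf4, psaB, psaA, psaI and psaJ. Of the 6 steps between neighbours in this order, only that from ycf3 to psaC, of 0.54, was larger than the yardstick. The remaining steps ran from 0.05 to 0.35, within it with this scaling, while the step from psaI to psaJ exceeded it under quantile and loess scaling. The ends of the order lay farther apart. The log2 differences of ycf3 and psaJ lay 1.59 apart, a 3.00-fold change in their ratio, and a single scaling factor for an array cancels from such a value. It was 2.09 under quantile and 1.99 under loess scaling. The same order was found under 8 of 10 alternatives to the processing, and psaA and psaB changed places under the other 2, quantile and loess scaling. Among the 8, only the pseudocount of 16 could have altered the order. The rest left the members' values unchanged or moved all of them by the same amount.

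**Figure D2:**
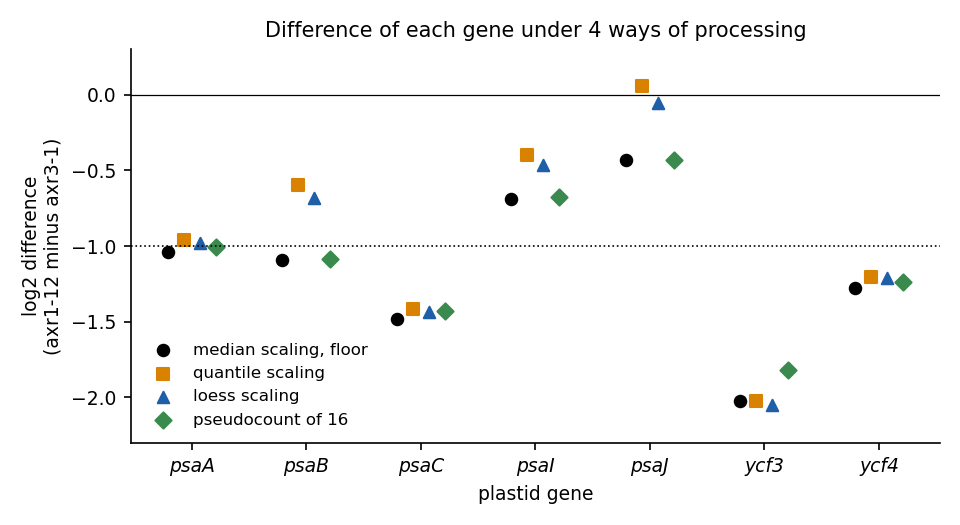
Log2 difference (axr1-12 minus axr3-1) of each of the 7 genes under 4 ways of processing, with 1 symbol for each way, a dotted line at 2-fold lower and a solid line at no difference. The symbols for psaC, ycf4 and psaA lie close together, whereas psaB, psaI and psaJ shift upward under quantile and loess scaling and psaJ reaches 0.060.

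Against the whole plastid genome the members spread over most of the range. Over the 62 plastid genes that passed, the median was -0.95 on the log2 scale, and those that are no members ran from -2.21 to -0.04. Counted from the largest difference, ycf3 held place 5 of 62, psaC place 11, ycf4 place 18, psaB place 23, psaA place 27, psaI place 43 and psaJ place 57. Relative to the plastid median, ycf3 was lower by a further 2.10-fold, or -1.07 on the log2 scale, and psaC by -0.53. The values for ycf4, psaB and psaA were -0.33, -0.14 and -0.09, within the yardstick, and so was that for psaI at 0.26. The psaJ gene lay 0.52 above the plastid median. Under quantile and loess scaling the values relative to the plastid median were -1.29 under both for ycf3, -0.68 under both for psaC, -0.47 and -0.46 for ycf4, and 0.80 and 0.70 for psaJ. For psaB the sign turned, to 0.14 and 0.07.

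**Figure D3:**
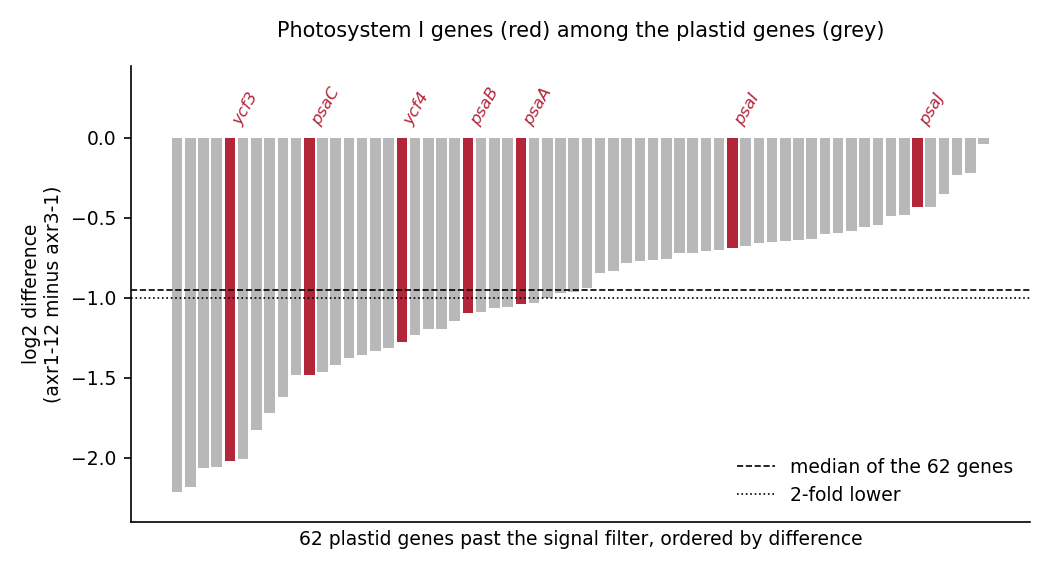
Log2 difference (axr1-12 minus axr3-1) of the 62 plastid genes past the signal filter, 1 bar for each gene from the largest to the smallest difference, with members in red and named, a dashed line at the median of -0.95 and a dotted line at 2-fold lower. The red bars are spread from place 5 to place 57.

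The other complexes made in the plastid were counted over genes past the filter only. Of 15 photosystem II genes, 5 were at least 2-fold lower, with values from -2.18 for psbK to -0.22 for psbJ. None of 4 cytochrome b6f genes past the filter was, with values from -0.97 to -0.64. Of 5 ATP synthase genes past it, 3 were, from -2.21 for atpF to -0.54 for atpB. The cytochrome b6f genes petN and petG and the ATP synthase gene atpI did not pass. Each read below the floor of 15.3 units in axr1-12, with differences of -2.43, -0.98 and -1.44. The range of the photosystem I genes, from -2.02 to -0.43, overlapped the range of each complex past the filter. Differences between complexes were not tested. The plastid genes nearest to the members' median were ndhD, a subunit of the NDH complex, at -1.08, rbcL, the large subunit of Rubisco, at -1.07, and accD, a subunit of acetyl-CoA carboxylase, at -1.06. This likeness is over 2 arrays only. The 4 plastid-encoded subunits of the bacterial-type RNA polymerase, which transcribes most photosynthesis genes, were all on the array, and the 3 past the filter had values of -0.72 for rpoA, -1.19 for rpoC2 and -1.36 for rpoC1.

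Genes beside the members on the plastid genome were compared with them, whether or not they share a transcription unit. In land plants psaA and psaB are transcribed together with rps14, a small-subunit ribosomal protein gene. The rps14 probe set gave 42.6 units in axr3-1 and 39.0 in axr1-12, a log2 difference of -0.15, but both signals were dim and it did not pass the filter. On the other side of psaA lies ycf3, which has its own transcripts, and beyond it rps4, another ribosomal protein gene, at 5269 and 2333 units. The ycf3 difference was larger than that of psaA by 0.98 and than that of rps4 by 0.82, both above the yardstick and larger still under quantile (1.07 and 1.31) and loess scaling (1.07 and 1.23).

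The psaI and ycf4 genes are neighbours and lie in 1 unit with cemA, an envelope membrane protein gene, and petA, the cytochrome f gene, downstream of accD. Their differences were not equal along the unit. The values were -1.06 for accD, -0.69 for psaI, -1.28 for ycf4, -0.67 for cemA and -0.97 for petA. The ycf4 value thus lay 0.59 below psaI and 0.61 below cemA, both above the yardstick, and 0.80 and 0.72 below them under quantile scaling.

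The psaJ gene is followed by rpl33 and rps18, genes of a large- and a small-subunit ribosomal protein. The rpl33 probe set gave 2248 and 1632 units and the rps18 probe set 706 and 436. The psaJ difference was 0.05 from that of rpl33 and 0.28 from that of rps18. All 3 were below 2-fold, and rps18 was 0.69 from psaJ under quantile scaling.

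The psaC gene is surrounded by NDH genes with which it is transcribed. The value for psaC, -1.48, was 0.17 from that of ndhE at -1.31 and 0.40 from that of ndhD at -1.08. Under quantile and loess scaling these gaps were 0.082 and 0.098 for ndhE and 0.62 and 0.59 for ndhD. Farther along, ndhG was at -1.23, ndhI at -0.58 and ndhA at -0.63. Past them, ndhH did not pass the filter, with 44.9 and 31.3 units, and rps15 was at -0.04 with 71.5 and 70.6 units. Of the 14 listed partners and neighbours of the members, 12 passed the filter. With the median scaling each of the 12 had less signal in axr1-12, as did every plastid gene that passed. Under quantile scaling this did not hold for psaJ, at 0.060. Of the 12, 5 were at least 2-fold lower, beside 41.8% of all plastid genes past the filter that are no members. Over all 55 pairs of adjacent plastid genes with both genes past the filter, the median gap between their log2 differences was 0.35, against 0.48 over all 1891 pairs. For the 9 adjacent pairs with a member the median gap was 0.40, with a range from 0.05 to 0.98. Adjacency here skips transfer RNA genes and genes without a probe set of their own.

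**Figure D4:**
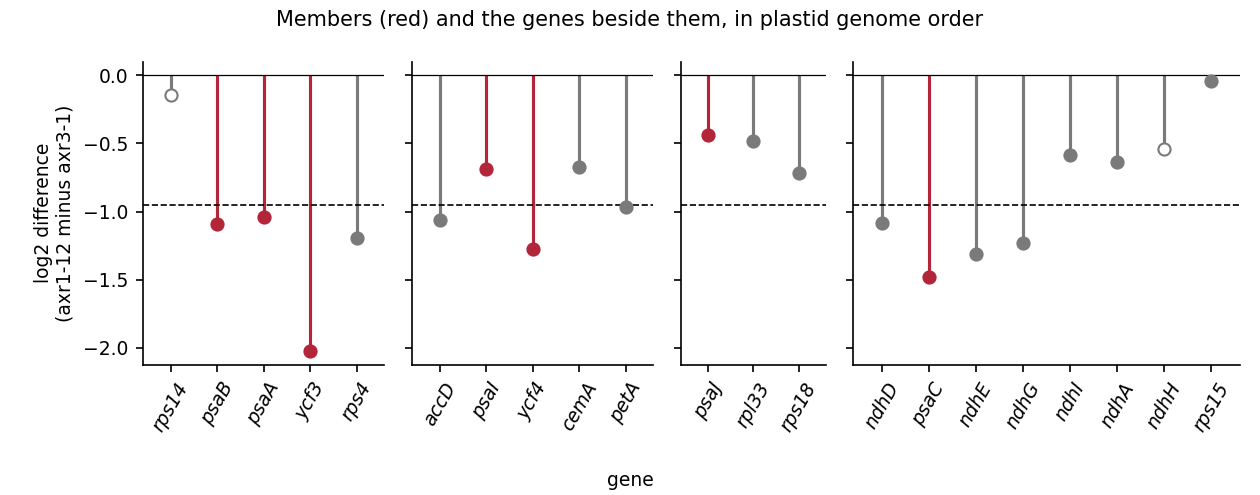
Log2 difference (axr1-12 minus axr3-1) of the members (red) and of the genes beside them (grey) in 4 stretches of the plastid genome, drawn in genome order and not to distance. Filled points passed the signal filter, open points did not, and the dashed line marks the plastid median of -0.95. The ycf3 point at -2.02 lies below both of its neighbours, and the ycf4 point at -1.28 lies below psaI and cemA.

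The nuclear partners of the same complex could be followed only in part. Of 13 listed nuclear subunit genes of photosystem I, PSAE-1 and PSAN had a probe set with a single-gene name. PSAE-1, a stromal subunit at the ferredoxin docking site, gave 3473 units in axr3-1 and 1604 in axr1-12, 2.20-fold lower. PSAN, a lumenal subunit near the plastocyanin site, gave 2275 and 1349 units, 1.71-fold lower. Their log2 differences of -1.14 and -0.78 lay inside the range of the plastid members and became -0.79 and -0.43 under quantile scaling. HCF101, which supplies iron-sulfur clusters to photosystem I, gave 318 and 215 units, a difference of -0.58 that quantile and loess scaling left at -0.59. PGRL1B, of cyclic electron flow around photosystem I, gave 171 and 166 units and differed by -0.06. No single-gene name was found for the 6 antenna genes LHCA1 to LHCA6, for 6 genes of the electron carriers on either side, for 8 genes of sigma factors and phage-type polymerases, or for 4 genes of splicing or stability of the members' RNAs, and they are not analysed here.

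Some array-wide measures moved in the same direction as the members and others did not. Hybridisation spikes, RNAs added to the target and not made by buds, read less on the axr1-12 array in all 18 of their probe sets, with a median of -0.63. The 25S ribosomal RNA control, another RNA without a long poly(A) tail, gave 1101 and 549 units. The 5S ribosomal RNA control gave 7.92 and 10.4 units, below the floor, and 5 mitochondrion-encoded genes, matched by symbol, had a median of 0.05 and a range from -0.55 for nad4 to 0.16 for nad5, with 2 of the 5 lower in axr1-12. The 131 probe sets of no plastid gene whose mean log2 signal reached 11, where psaB and psaJ also lie, had a median of -0.32. At the level of ycf3 and above, the 4542 probe sets of no plastid gene had a median of -0.01, and 4.36% of them were at least 2-fold lower. Among the 62 plastid genes the difference was smaller at higher signal, with a Spearman correlation of 0.51 and a Pearson correlation of 0.39 between mean log2 signal and log2 difference, points that share 2 arrays. Over 11304 other probe sets the Spearman correlation was -0.04. Of the listed tissue markers few had a name here. LAS, of axillary meristems, was the single one of 10 bud markers and gave 69.8 and 61.8 units. RCA, Rubisco activase and the single one of 9 leaf markers, gave 2441 and 2122 units, a difference of -0.22 that turned to 0.19 under quantile and 0.08 under loess scaling. The vascular marker IRX10 differed by -0.25, the flower marker AMS by 0.48, and the root marker PYK10, at 26.2 and 23.9 units, lay below the highest bacterial control. The part of these measures in the members' differences was not tested.

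**Figure D5:**
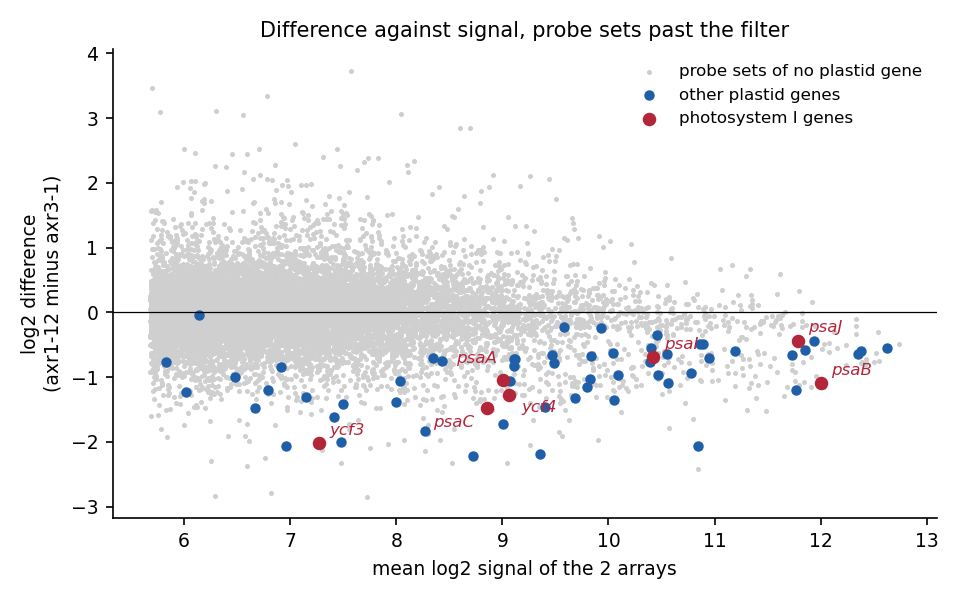
Log2 difference (axr1-12 minus axr3-1) against the mean log2 signal of both arrays for the probe sets past the filter, with members in red, other plastid genes in blue and probe sets of no plastid gene in grey. All red and blue points lie below 0, and those at the dimmer end, such as ycf3 at -2.02, reach lower than the brightest, such as psaJ at -0.43.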

How the data were processed

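The authors deposited MAS5 signal, a linear intensity for each probe set, per the submitters' processing notes; no MAS5 version is recorded there. The mean without the highest and lowest 2% of values was 100.01 for each array, so the authors had scaled them. Of 22810 probe sets, 64 controls were left out. Genes came from the platform annotation, with symbols updated to TAIR10.1: 13513 probe sets had 1 gene, 503 several and 8730 were not listed. The arrays were levelled by the median ratio (log2 shift 0.021), a floor of 15.3 units (their 25th percentile) was set, and log2 was taken (numpy 2.4.6, pandas 2.3.3). The filter kept 11373 probe sets. The brightest probe set stood for a gene. With 1 array per line no test was run, and the number of arrays limits the precision. Alternatives were other scalings (none, quantile, or loess with a span of 0.3 in statsmodels 0.14.6), no floor, a pseudocount of 16, no filter or one at the 67th percentile, a 3-fold threshold, the mean over probe sets, and plain _at sets. The scaling was tested on simulated data, with no result given here. Members, lists and alternatives were chosen with earlier results of these data known. The naming rule took all members, their genome neighbours, listed photosystem I and plastid expression genes past the filter, and the 3 plastid genes nearest to the members' median. Tissue markers and the genes at the ends of other complexes were named beyond it.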

Additional observations from a re-analysis of the deposited data

Results flagged for a closer look

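Both signals in this part come from the manufacturer's controls, which the comparison leaves out, and lay above 29.4 units, the highest bacterial control. The control for 25S ribosomal RNA read 1101 units in axr3-1 and 549 in axr1-12, a log2 difference of -1.026. Over the 18 spike probe sets the log2 differences ran from -0.84 to -0.26 with a median of -0.6263.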

How the results depend on the processing

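Of 132 alternative values under 10 alternatives, 121 moved by less than the 0.37 disagreement between probe sets, or, for counts, by less than 1.5 times. Of these, 119 kept their sign and 2 turned, those of psaB relative to the plastid median, from -0.14 to 0.14 under quantile and 0.07 under loess scaling. Some of the 121 could not move, so this count is not a measure of stability. With 1 probe set for each member, the mean over probe sets changed no member value. Values relative to the plastid median were the same at the deposited scale and without a floor. The psaJ difference of -0.43 turned to 0.060 under quantile scaling and was -0.055 under loess scaling. The psaB difference of -1.09 was -0.60 under quantile and -0.69 under loess scaling. The count of members at least 2-fold lower fell from 5 to 3 under both, with psaA and psaB below the threshold, and 1, ycf3, was at least 3-fold lower. Of the 11373 probe sets past the filter, 352 were at least 2-fold higher and 373 lower, and at 3-fold these were 86 and 53. Without a filter, over 22746 probe sets, 709 were at least 2-fold higher and 738 lower. The cause of the moves under quantile and loess scaling was not tested. No paired analysis was possible because each line has 1 array, and for the same reason no replicate could be left out.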
